A study of Mus musculus with 4 samples.

Results

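The genes described here encode proteins of the epithelial basement membrane: the laminin chains Lama3, Lamb3, Lama5, Lamb1 and Lamc1, the collagen IV chains Col4a5 and Col4a6, and the Fraser complex proteins Fras1 and Frem2. They were chosen by name, as every array probe whose gene name in the scanner files is one of these 9 symbols. That gave 11 probes for 9 of the 30010 gene names on the array: 2 probes each for Lama3 and Col4a6 and 1 for each other gene. All 11 probes are given separately, since probes of one gene can disagree. The 9 genes were chosen with earlier results of these data known.

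All RNA came from E15.5 ureters of NMRI mice. The cKO embryos carried the cre driver Pax2-cre/+ together with Trp63(dN-flox/dN-flox), so that cre under Pax2 control recombines both floxed ΔN alleles of Trp63, the gene of the basal epithelial transcription factor p63. The control embryos were Trp63(dN-flox/?), with at least 1 floxed allele and no cre listed, so that an effect of the cre transgene cannot be told apart from the loss of ΔNp63. Each of the 4 arrays set a cKO RNA against a sex-matched control RNA, female in replicates 1 and 2 and male in replicates 3 and 4. The cKO RNA was labelled red in replicates 1 and 3 and green in replicates 2 and 4. The labels do not say whether an RNA came from 1 embryo or a pool, nor that the replicates are separate litters, so the p-values measure the spread between these samples.

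A basement membrane is a sheet of matrix under an epithelium, built on a network of laminin and a network of collagen IV. A laminin is a trimer of 1 alpha, 1 beta and 1 gamma chain: Lama3 joins Lamb3 in the laminin that anchors basal cells through hemidesmosomes, while Lama5, Lamb1 and Lamc1 form a laminin found under most epithelia. Collagen IV protomers are trimers too, and Col4a5 and Col4a6 share one of them, whereas Col4a1 and Col4a2 form the protomer present in nearly every basement membrane. Fras1 and Frem2 are large proteins of the Fraser complex, which links embryonic epithelia to the mesenchyme beneath them. Col4a5 and Col4a6 lie head to head on the X chromosome.

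Of the 11 probes, 1 passed the test, a probe of Col4a6 that was 1.74-fold lower in cKO ureters (log2 ratio -0.80 ± 0.19, SD, n = 4 arrays, limma adjusted p = 0.0199). The probes of Lama3 and Col4a5 were also below 0 on all 4 arrays, with mean log2 ratios of -0.52, -0.68 and -0.48, but did not pass. The probes of Lamb3, Lama5, Lamb1, Lamc1, Fras1 and Frem2 lay between -0.12 and 0.14, with overlapping levels in cKO and control RNAs.

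The Col4a6 probes that gave different values read different stretches of its transcript, and the sequences are shown to let the probes be told apart. A_52_P516409, the probe that passed, lies at chrX:137599990-137600049 and A_52_P447196 at chrX:137601433-137601491, both on the minus strand of build mm9 and both annotated to Col4a6 in the scanner files. The files place them at transcript positions 6544 and 5102. None of the 3 sense reading frames of A_52_P516409 is free of a stop codon, and its first 30 bases are printed. A_52_P447196 has 1 such frame and is printed whole. Their GC contents are 36.7% and 55%.
A_52_P516409: ggcaaagcataacaagtacattctgagctc
A_52_P447196: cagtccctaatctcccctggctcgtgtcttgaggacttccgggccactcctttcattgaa

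The promoters of Col4a5 and Col4a6 are shown because these neighbouring genes were both below 0 on every array. Each window is the 250 bases before the RefSeq start of the gene in build GRCm38.p6, on the plus strand for Col4a5 at chrX:141475169-141475418 and on the minus strand for Col4a6 at chrX:141474077-141474326, with 842 bases between the windows. Capitals mark the match to the core pattern of a p53 family site: CNNG, then any 6 bases, then CNNG, which reads the same on both strands.
Col4a5 promoter: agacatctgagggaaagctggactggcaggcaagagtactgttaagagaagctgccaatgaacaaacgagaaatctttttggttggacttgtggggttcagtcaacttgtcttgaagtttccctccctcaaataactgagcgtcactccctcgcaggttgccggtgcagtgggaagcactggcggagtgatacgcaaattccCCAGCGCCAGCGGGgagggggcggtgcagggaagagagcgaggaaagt
Col4a6 promoter: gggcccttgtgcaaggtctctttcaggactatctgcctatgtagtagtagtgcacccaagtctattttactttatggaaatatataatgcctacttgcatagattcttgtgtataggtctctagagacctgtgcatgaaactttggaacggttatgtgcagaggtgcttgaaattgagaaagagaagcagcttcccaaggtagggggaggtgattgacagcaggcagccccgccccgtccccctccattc
The Col4a5 window held 1 match and the Col4a6 window held none. The pattern is short, and 63.5% of all 32851 promoter windows of this length held it at least once. Among the 6 genes of the set with a promoter in the RefSeq table, 6 of 7 windows held it. A match describes letters and does not show binding.

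Across the whole series, 28610 probes were fitted and 290 were called changed at adjusted p under 0.05. Of all fitted probes, 0.58% were called lower and 0.433% higher in cKO. The deleted gene was checked first: Trp63 probe A_51_P216550 was at -1.37 ± 0.18 (adjusted p = 0.00316) and A_55_P1952056 at -1.26 ± 0.36 (adjusted p = 0.00623), both called, whereas A_52_P338796 at -0.81 ± 0.34 (adjusted p = 0.0545) and A_55_P2161055 at -0.02 ± 0.16 were not. Between 71.8% and 77.0% of spots were well above background per array and channel. The arrays did not all vary alike: over all fitted probes, the ratios of replicates 2 and 4 correlated at Pearson r = -0.10 (Spearman rho = -0.33), and those of replicates 2 and 3 at r = 0.63. Replicate 2 gave the highest of the 4 ratios for 33.1% of fitted probes and replicate 4 the lowest for 32.7%. Among the 11 basement membrane probes, replicate 2 was the highest for 10 and replicate 4 the lowest for 9.

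**Figure D1:**
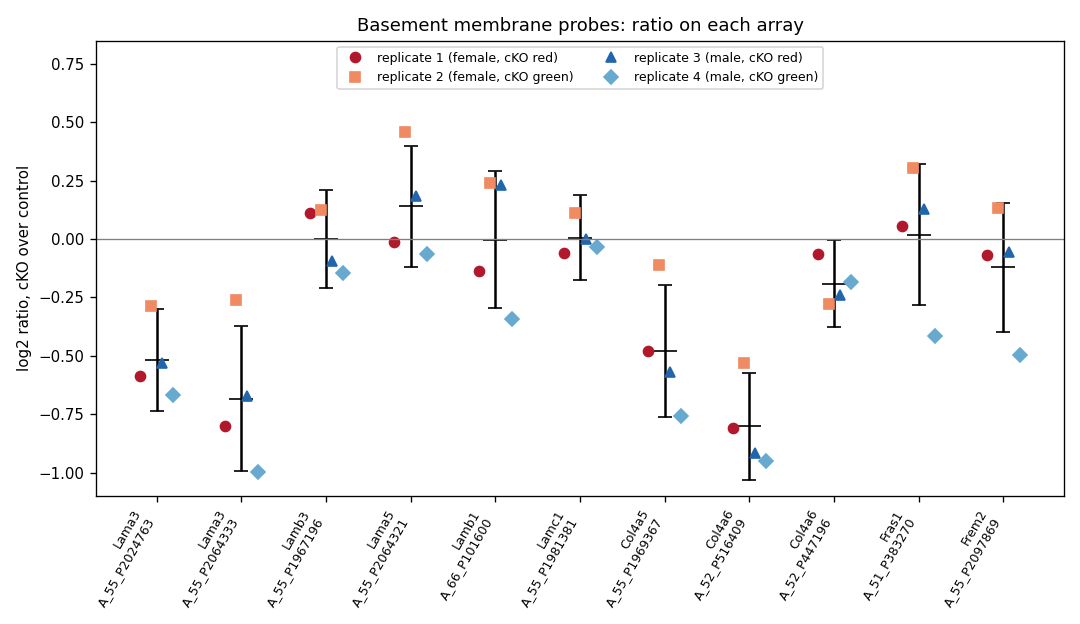
Log2 ratio of cKO over control for each of the 11 probes (vertical axis, log2), 1 symbol for each of the 4 arrays, with the mean as a horizontal tick and the 95% interval from limma as a bar. The Lama3, Col4a5 and Col4a6 probes lie below 0 on every array, and the square of replicate 2 is the highest symbol for 10 of the 11 probes.

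Lama3 encodes the alpha 3 chain of the hemidesmosome laminin. Its probe A_55_P2024763 (mm9 chr18:12741067-12741126, transcript position 9887) had log2 levels of 10.15, 10.26, 10.36 and 10.19 in the cKO RNAs of replicates 1 to 4, against 10.74, 10.54, 10.89 and 10.85 in the control RNAs. These levels are channel signals on a log2 scale after normalisation between arrays, and are compared only within a probe. Every cKO level was below every control level, and the control RNA of replicate 2 came closest to the cKO RNAs. The log2 ratio was -0.52 ± 0.16 (SD, n = 4), or 1.43-fold lower, with a 95% interval of -0.74 to -0.30 and a limma adjusted p of 0.0787.

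The other Lama3 probe, A_55_P2064333, lies further along the same transcript (mm9 chr18:12741458-12741517, position 10278). Its levels were 9.66, 9.98, 10.08 and 9.83 in cKO RNAs, against 10.46, 10.24, 10.75 and 10.83 in control RNAs, again without overlap. The ratio of replicate 2, at -0.26, stood above the other 3, which ran from -0.998 to -0.67. The mean was -0.68 ± 0.31 (SD, n = 4), 1.61-fold lower, with a 95% interval of -0.99 to -0.37 (limma adjusted p = 0.0978). Both Lama3 probes thus had the same sign on every array and missed the threshold.

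The calls for Lama3 depended on which arrays were fitted. Without replicate 2, the first probe was at -0.61 (limma adjusted p = 0.00182) and the second at -0.87 (adjusted p = 0.000188). When replicate 4 was left out, they were at -0.42 and -0.50, with an adjusted p of 0.0130 for the first and 0.00620 for the second. The second probe passed also when replicate 1 was dropped (-0.65, adjusted p = 0.0132), and when replicate 3 was (-0.72, adjusted p = 0.00350). With 3 arrays and a dye term, 1 array is fitted exactly. A probe's own spread then comes from the remaining 2 arrays of the other dye orientation, beside the variance that limma shares over probes. In each fit with 1 array left out, the adjusted p of the set's probes followed the size of the ratio. These passes therefore do not show that the arrays of a probe agree closely.

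Lamb3, the beta partner of Lama3, had ratios on both sides of 0. Its probe A_55_P1967196 (mm9 chr1:195170009-195170068) had levels of 12.52, 12.47, 12.49 and 12.31 in cKO RNAs and 12.41, 12.34, 12.58 and 12.46 in control RNAs, and the groups overlapped. Its ratios were -0.10 and -0.14 on the male arrays and 0.11 and 0.13 on the female arrays, with a 95% interval of the mean of -0.21 to 0.21. Measured within each array, Lama3 A_55_P2024763 minus Lamb3 was -0.52 ± 0.13 and negative on 4 of 4 arrays.

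Lama5, the alpha chain of the general epithelial laminin, had levels of 15.17, 15.45, 15.24 and 15.02 in cKO RNAs and 15.18, 15.00, 15.06 and 15.08 in control RNAs at probe A_55_P2064321 (mm9 chr2:179911079-179911138). The cKO RNA of replicate 2 was the highest of the 8, and the groups overlapped. The mean ratio was 0.14 ± 0.24 (SD, n = 4) with a 95% interval of -0.12 to 0.40. Lama3 minus Lama5 was -0.66 ± 0.08 within arrays, negative on 4 of 4.

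Lamb1, the beta chain of the same laminin, had levels of 15.84, 15.94, 16.04 and 15.68 in cKO RNAs and 15.97, 15.70, 15.81 and 16.03 in control RNAs (probe A_66_P101600, mm9 chr12:32014411-32014470). Replicates 2 and 3 were above 0 and replicates 1 and 4 below, which gave a 95% interval of -0.30 to 0.29. Lamc1, the gamma chain, differed least between arrays: probe A_55_P1981381 (mm9 chr1:155066156-155066215) had ratios between -0.06 and 0.11, and levels of 15.64, 15.79, 15.84 and 15.73 in cKO RNAs against 15.70, 15.68, 15.84 and 15.76 in control RNAs. Its 95% interval was -0.18 to 0.19. For these 3 chains, a decrease in whole-ureter RNA as large as the mean of either Lama3 probe lay outside the interval. Epithelial RNA was not measured apart from that of other cells, so the intervals do not bound a change within the epithelium.

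**Figure D2:**
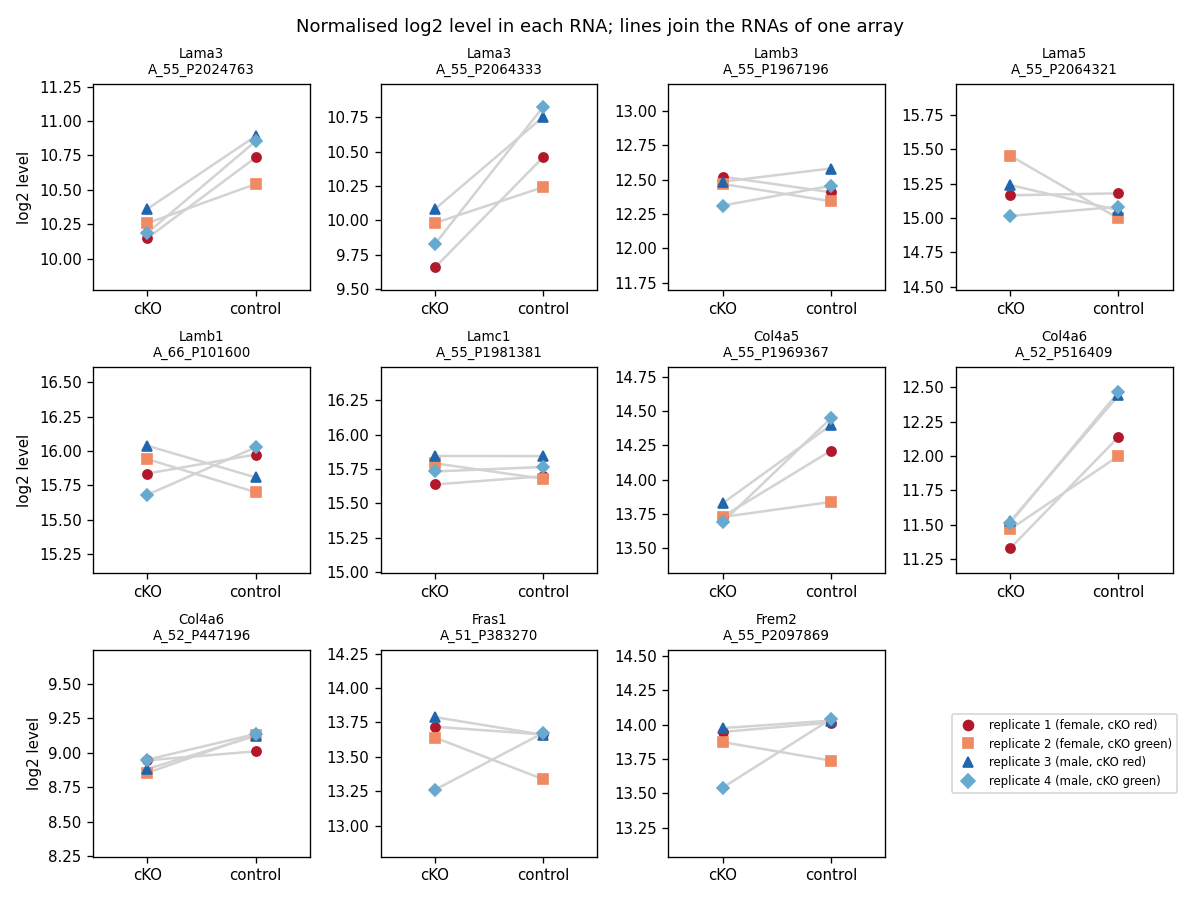
Normalised log2 level of each probe (vertical axes, all spanning the same number of log2 units) in the 4 cKO RNAs, left in each panel, and the 4 control RNAs, right, with a line joining the RNAs of 1 array. The Col4a5 panel shows cKO levels between 13.69 and 13.83 and control levels between 13.84 and 14.45.

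Col4a5 encodes the alpha 5 chain of collagen IV. Probe A_55_P1969367 (mm9 chrX:138123547-138123606) had levels of 13.73, 13.73, 13.83 and 13.69 in cKO RNAs, against 14.21, 13.84, 14.40 and 14.45 in control RNAs. The cKO RNAs lay close together, with an SD of 0.058, and the control RNAs spread more widely, with an SD of 0.28 and replicate 2 as the lowest. Every cKO level was below every control level, by a narrow margin at the control RNA of replicate 2. The mean ratio was -0.48 ± 0.27 (SD, n = 4), 1.39-fold lower, with a 95% interval of -0.76 to -0.19 and a limma adjusted p of 0.216. It passed at -0.64 when replicate 2 was left out (adjusted p = 0.00142) and at -0.32 when replicate 4 was (adjusted p = 0.0443).

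Col4a6, which encodes the alpha 6 chain, gave the called decrease at probe A_52_P516409. The levels were 11.33, 11.47, 11.52 and 11.51 in cKO RNAs, against 12.14, 12.00, 12.44 and 12.46 in control RNAs. The groups were apart on every array, with ratios of -0.81, -0.53, -0.92 and -0.95. The mean of -0.80 ± 0.19 (SD, n = 4) had a 95% interval of -1.03 to -0.57 and ranked at 166 by p among all fitted probes. The probe passed without any 1 array (-0.91 to -0.70), in fits where the adjusted p followed the size of the ratio. It did not pass with all dim probes kept in the fit and its adjustment (adjusted p = 0.105). Nor did it pass with a trended and robust variance (adjusted p = 0.0602) or in the authors' deposited table (-0.81, adjusted p = 0.330).

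The second Col4a6 probe, A_52_P447196, moved less. Its levels were 8.95, 8.85, 8.88 and 8.95 in cKO RNAs, against 9.01, 9.13, 9.12 and 9.14 in control RNAs. All 4 ratios were below 0 and the groups did not overlap, with a mean of -0.19 ± 0.09 (SD, n = 4), a 95% interval of -0.38 to -0.01 and a limma adjusted p of 0.643. The probe was well above background in both RNAs on all 4 arrays. The difference between the probes, A_52_P516409 minus A_52_P447196, was -0.61 ± 0.24 and negative on 4 of 4 arrays, so the size of the Col4a6 decrease depends on the probe read.

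The ubiquitous collagen IV chains had means near 0. Col4a1 was at -0.05 ± 0.17 and Col4a2 at -0.03 ± 0.11, and none of the 4 other collagen IV genes was called in either direction (0 and 0 also by limma's unadjusted p under 0.05). Within arrays, Col4a6 A_52_P516409 minus Col4a1 was -0.75 ± 0.23, Col4a5 minus Col4a1 was -0.42 ± 0.30, and Col4a6 minus Col4a5 was -0.32 ± 0.10. Each of the 7 within-array differences computed, 6 of them given here, was negative on 4 of 4 arrays, which yields 0.125 in the exact two-sided sign-flip test, before and after adjustment over the 7. That is the smallest p that 4 arrays allow, and the pairs were chosen after their values were seen.

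The Fraser complex genes were not called. Fras1, which encodes a membrane-bound matrix protein, had levels of 13.72, 13.64, 13.79 and 13.26 in cKO RNAs and 13.66, 13.34, 13.66 and 13.67 in control RNAs (probe A_51_P383270, mm9 chr5:97213218-97213277). The cKO RNA of replicate 4 was the lowest of the 8 and the groups overlapped, with a mean ratio of 0.02 ± 0.31 and a 95% interval of -0.28 to 0.32. Frem2, its partner in the complex, had levels of 13.95, 13.87, 13.98 and 13.54 in cKO RNAs and 14.02, 13.74, 14.03 and 14.04 in control RNAs (probe A_55_P2097869, mm9 chr3:53318005-53318064). Again the cKO RNA of replicate 4 was the lowest, and the mean ratio was -0.12 ± 0.27 with a 95% interval of -0.40 to 0.16. Frem1, another protein of the complex, was at 0.29 ± 0.21 (limma adjusted p = 0.515), and Frem3 was not well above background.

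Counted over the set, 1 of 11 probes was called lower, where 0.58% of all fitted probes were, and 0 were called higher (0 also at an unadjusted p under 0.05, limma). At an unadjusted p under 0.05, 5 of 11 probes were lower, beside 4.02% of all probes. The same 5 probes, of Lama3, Col4a5 and Col4a6, were below 0 on all 4 arrays, beside 7.38% of all probes, and had every cKO level below every control level, beside 3.12%. The median ratio of the 11 probes was -0.12, and that of all fitted probes was 0.00. With 1 probe a gene, as in the medians of the other lists, the median of the 9 genes was -0.003. The probes of 1 gene share their transcript, so 5 probes stand for 3 genes. The set was chosen with earlier results of these data known, so these shares describe its probes and are no test of the set.

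**Figure D3:**
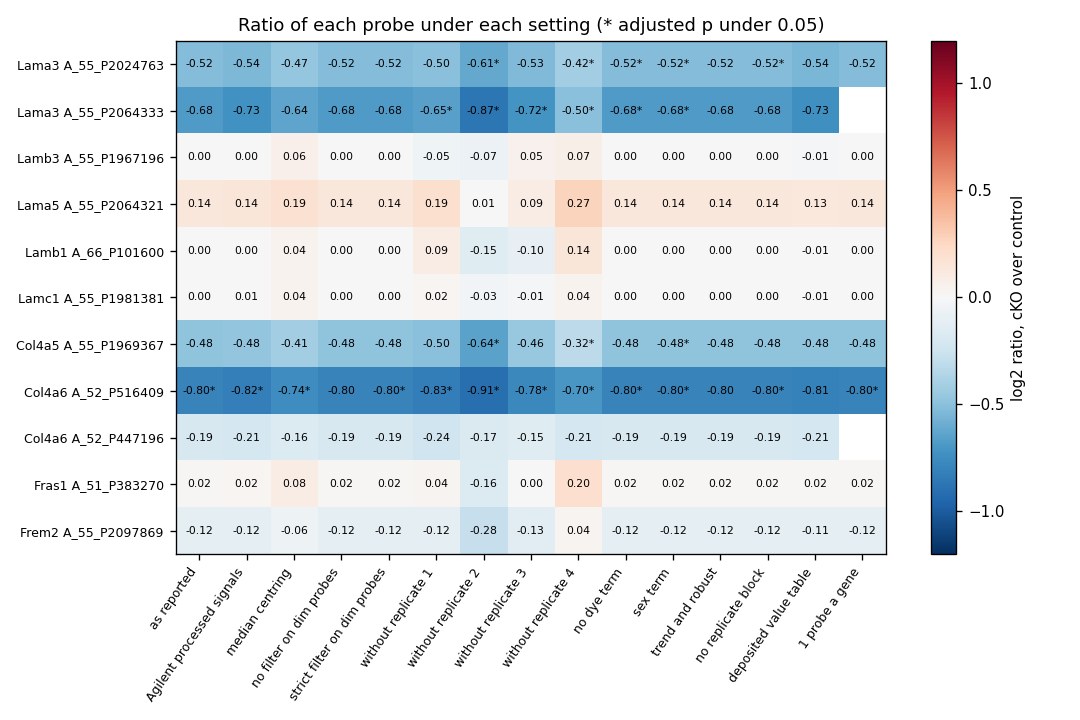
Mean log2 ratio of cKO over control (colour and number) of each probe in rows under each processing setting in columns, with a star where the adjusted p was under 0.05 and a blank where the setting drops the probe. The Lama3, Col4a5 and Col4a6 rows stay below 0 in every column that holds a value, and the stars of Lama3 and Col4a5 come and go with the arrays fitted.

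No probe of the set differed between the sexes or dyes in the test of that difference. The cKO effect in male minus female arrays ran from -0.37 at Col4a5 to -0.04 at Lamc1 and Col4a6 A_52_P447196 with 0 of 11 called and 0 at an unadjusted p under 0.05 (limma, smallest adjusted p = 1.00), although all 11 differences were below 0. The share of all fitted probes with a difference below 0 was not computed. Replicate 4, a male array, was the lowest for 9 of the 11 probes, and replicate 2, a female array, the highest for 10. With 2 arrays of each sex the test rests on few values. In this fit limma gave all 11 probes the same variance, so the p-values follow the size of the difference and not each probe's own spread. For the X-linked genes, the ratios of Col4a5 were -0.57 and -0.76 in the male replicates 3 and 4, and -0.48 and -0.11 in the female replicates 1 and 2.

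Other genes of the basement membrane were read from lists grouped by role. Of 7 other laminin genes, 1 was called lower and 0 higher: Ntn4, a netrin that binds laminin, was at -0.75 ± 0.30 (1.68-fold lower, limma adjusted p = 0.0131), with ratios of -1.02, -0.40, -0.97 and -0.61. The Ntn4 probe was well above background in both RNAs on all 4 arrays. Its mean log2 levels were low, at 6.89 in cKO and 7.63 in control RNAs. Some probes that were not kept had levels near these, so the size of the Ntn4 decrease is uncertain. Lamc3 at 0.21 ± 0.16 and Lama4 at -0.13 ± 0.19 were not called, and the median of the list was 0.04. Of 20 further membrane and anchoring genes, 19 were above background and none was called, with a median of -0.11 (by limma's unadjusted p under 0.05, 2 were lower and 1 was higher). The smallest p belonged to Egfl6, an epithelial matrix protein that binds integrin, at -0.44 ± 0.25 (adjusted p = 0.200), and the 3 probes of the matrix glycoprotein Fbln1 were at -0.37, -0.26 and -0.32 (adjusted p of 0.324 to 0.371).

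Among 14 receptors of the basement membrane, 13 were above background, 2 fell and 1 rose. Itgb4, the integrin chain that pairs with Itga6 as the hemidesmosome receptor of the Lama3 laminin, was at -1.45 ± 0.36 (2.72-fold lower, limma adjusted p = 0.0102), with ratios of -1.55, -0.92, -1.55 and -1.76. Sdc1, a cell surface proteoglycan of epithelia, was at -0.70 ± 0.18 (1.62-fold lower, adjusted p = 0.0268). Itga7, a laminin receptor chain best known from muscle, rose by 0.50 ± 0.04 (1.42-fold higher, adjusted p = 0.0418). The probes of Itga6 were at -0.14 and -0.07, neither called, and the median of the list was -0.18. By limma's unadjusted p under 0.05, 4 receptor genes were lower and 1 was higher.

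Of 18 genes of collagen processing and matrix turnover, 17 were above background and none was called (by limma's unadjusted p under 0.05, 1 was lower and 2 were higher). The transglutaminase Tgm2, which cross-links matrix proteins, had probes at 0.30 and 0.21, the protease inhibitor Timp3 was at 0.36 ± 0.32, and the type IV collagenase Mmp2 at -0.19 ± 0.04. The median of this list was -0.03.

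**Figure D4:**
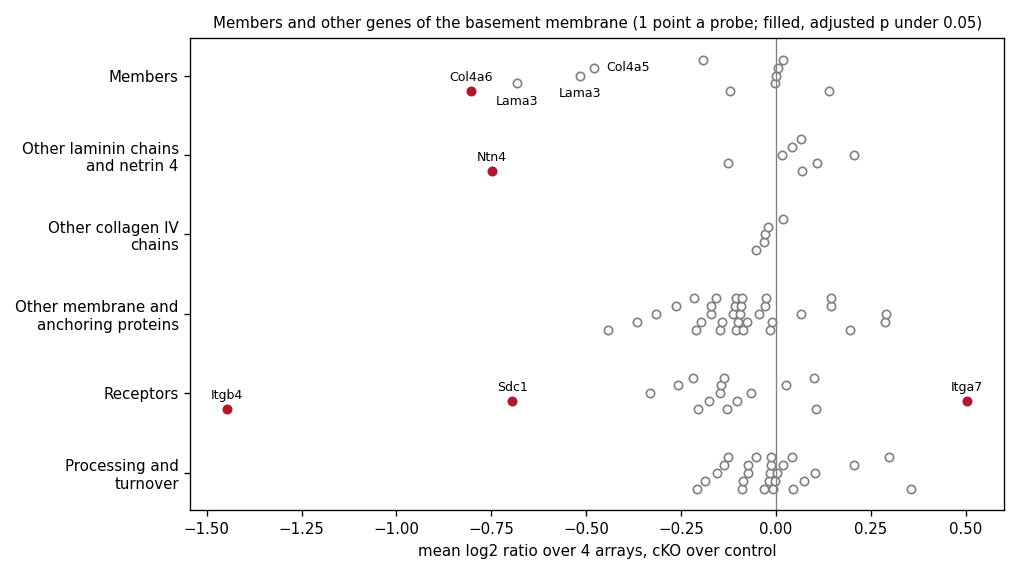
Mean log2 ratio of cKO over control (horizontal axis) of every probe above background in the set described here (Members) and in 5 lists of other basement membrane genes, 1 point a probe and filled where the adjusted p was under 0.05. The called probes are those of Col4a6, Ntn4, Itgb4 and Sdc1, which were lower, and Itga7, which was higher. Vertical offsets within a row only separate the points.

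The whole ureter holds epithelium, mesenchyme, smooth muscle and other cells, and in such bulk RNA fewer cells of a type and less RNA per cell cannot be told apart. The 14 general epithelial markers had a median ratio of -0.10, with list medians of -0.14, 0.05, -0.25 and -0.13 on replicates 1 to 4 and a mean level of 14.79 to 14.99 in cKO RNAs against 14.95 to 15.20 in control RNAs. Of these, the basal keratin Krt5 at -1.87 ± 0.42 and the uroplakin Upk2 at -0.54 ± 0.11 fell, and Krt18 rose by 0.50 ± 0.14. Epcam, at -0.10 ± 0.08, and the epithelial cadherin Cdh1, at -0.40 ± 0.26, were not called. Nor were the uroplakins Upk1a at -0.006, Upk3a at 0.006 and Upk1b at -0.18, or the Krt8 probes at 0.37 and 0.34. By limma's unadjusted p under 0.05, 4 of the 14 genes were lower and 2 were higher. The 7 skeletal muscle markers had a median of -0.38, called decreases of Myl1 and Ckm, and a mean level of 10.33 to 10.93 in cKO RNAs against 10.78 to 11.26 in control RNAs. None of the markers of mesenchyme, smooth muscle, endothelium, nephron, nerve, leukocytes or fat was called, and their list medians lay between -0.17 and 0.13. By limma's unadjusted p under 0.05, 4 of 7 skeletal muscle genes and 3 of 7 leukocyte genes were lower, as was 1 gene each of nerve and fat. Of mesenchyme, 2 of 9 genes were higher, as was 1 gene each of nephron and fat. Of all 28610 fitted probes, 2159 were under that threshold in either direction, and 4.02% were lower. Of the nephron markers Umod and Nphs1 were not above background, nor were Plin1 and Adipoq of fat. The part of these marker shifts in the Lama3, Col4a5 and Col4a6 values was not tested.

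Among the genes whose levels over the 8 RNAs were most like those of Col4a6 A_52_P516409 were Fermt1 (Pearson r = 0.998), Edaradd (0.992), Adam28 (0.991) and Fam161a (0.989). Their log2 ratios were -1.41 ± 0.27, -1.06 ± 0.20, -0.62 ± 0.14 and -0.52 ± 0.14, in the same order. These correlations are descriptions: the 8 levels come in 4 pairs that share an array, and they hold both genotypes, between which this probe differed.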

How the data were processed

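Each of 4 two-colour arrays, all on 1 slide, compared a cKO and a control ureter RNA. The scanner files give, as deposited, an intensity for each spot (mean signal and median local background, red and green). The software was Agilent Feature Extraction 10.7.3.1, per the submitters' processing notes. They also hold flags of other kinds and the software's processed intensities, and their probe coordinates are of build mm9, per the file headers. The authors' deposited value table holds log2 ratios, already turned to cKO over control on every array. Set against the processed ratios, its columns had slopes of 0.943 to 0.956, a median of 0, and exact zeros for 32.2% to 32.6% of values. No source used here says how these zeros were set.

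Background was corrected with normexp (offset 50) and each array's log2 ratios were loess-normalised. Control spots had weight 0, nonuniform spots (17 to 33 per array) were left out, none was saturated, and the 4 spots of a probe were averaged. Of 39429 gene probes, 28611 were kept, with a share of at least 0.5 of their spots well above background on all 4 arrays in cKO or in control RNA, and 28610 could be fitted. The fit (lmFit and eBayes, two-sided) used R 4.3.3 and limma 3.58.1 with a coefficient for cKO over control and a dye intercept, the array being the pair, and Benjamini-Hochberg adjustment ran over all fitted probes. All adjusted p-values are limma's. Levels are channel values after loess and Aquantile normalisation. The number of arrays limits the precision. The fit was tested on simulated ratios.

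The set of genes and the lists were chosen with earlier results of these data known. Every probe of the set is named, and of the other lists each called gene and the 3 genes with the smallest p, with some other list members as examples; a few of these genes are left out of the text. Promoters were matched by symbol in the RefSeq table of GRCm38.p6 for 6 of 9 genes. The reading frame check of the probes and the within-array differences were chosen after seeing the data. Alternatives changed the background correction, normalisation, source of ratios, filter, arrays, dye and sex terms, pairing, variance model and probes per gene.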

Additional observations from a re-analysis of the deposited data

Results flagged for a closer look

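Lamb3, at probe A_55_P1967196, was below 0 on both male arrays and above 0 on both female arrays, a split by sex that no other probe of the set showed. The cKO effect in male minus female arrays was -0.24 on the log2 scale, with means of -0.12 on male arrays and 0.12 on female arrays. The test of this difference gave an unadjusted p of 0.382 and an adjusted p of 1.00 in limma, so the difference was not called. In that fit limma gave every probe of the set the same variance. The p-value therefore follows the size of the difference alone, and the closeness of the Lamb3 ratios within each sex plays no part in it.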

How the results depend on the processing

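Of 152 recomputed ratios of the 11 single probes, 122 kept their direction and side of the threshold. The 290 called probes became 82 with no filter on dim probes, 523 without the dye term, 602 with a sex term, 129 with a trended and robust variance, 444 without the replicate block (each RNA taken alone, not paired on its array) and 1 in the deposited table, and ran from 324 to 1976 with 1 array left out (1976 without replicate 4, 1037 without replicate 2). The 1 called probe of the set became 0, 3, 4, 0, 2 and 0 in the same order of settings, and 2 to 4 with 1 array left out. The 4 called genes of the other lists became 0 with no filter, 1 with the trended variance and 0 in the deposited table, and 3 to 9 with 1 array left out (9 without replicate 4). The Col4a6 probe A_52_P516409 missed the threshold at an unchanged -0.80 with no filter and with the trended variance, and at -0.81 in the deposited table. Lama3 passed at -0.52 (A_55_P2024763: without the dye term, with a sex term, without the replicate block) and at -0.68 (A_55_P2064333: without the dye term, with a sex term), and Col4a5 at -0.48 with a sex term. With 1 array left out, A_55_P2024763 ran from -0.61 to -0.42, A_55_P2064333 from -0.87 to -0.50 and Col4a5 from -0.64 to -0.32. Ratios near 0 changed sign: Lamb3 was at 0.0039 and Lamb1 at 0.00048 from the processed signals and at 0.0626 and 0.0398 with median centring, and Lamc1 was at -0.0056 in the deposited table. With 1 array left out, Lamb3 ran from -0.0675 to 0.0671, Lamb1 from -0.15 to 0.14, Lamc1 from -0.0313 to 0.0412, Fras1 from -0.16 to 0.20 and Frem2 from -0.28 to 0.0363. The test of a sex difference was repeated under 4 alternatives (processed signals, median centring, no filter, trended and robust variance), and 0 of 11 probes were called in each. With a sex term or with 1 array left out, the adjusted p of the 11 probes followed the size of the ratio. With no filter, the dim probes entered both the adjustment and the variance that limma shares over probes. Fewer samples or more probes in the fit follow from the alternatives' construction, and other causes were not tested.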
